A study of Mus musculus with 8 samples.

Results

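The genes described here encode subunits of the BAF (SWI/SNF) chromatin remodelling complex that exist as paralogs or alternative members of a subunit family, and they were taken by symbol: Smarca4, Smarca2, Smarcc1, Smarcc2, Actl6a, Actl6b, Smarcd1, Smarcd3, Dpf1, and Phf10. All 10 were found among the 24354 genes of the table. Their mRNA was measured in 4 cell types with 2 sequencing libraries each, 8 in all. The ESCs belonged to E14, a mouse embryonic stem cell line, and both ESCs and EPSCs are labelled wild type (wt). EPSCs (extended pluripotent stem cells) were line 1 at passage 15, derived from C57BL/6 8-cell embryos. NSCs (neural stem cells) carried the OG2 transgene, a GFP driven by the Oct4 distal enhancer, and the ubiquitous lacZ of ROSA26, each on 1 allele. The EPSC-NSC hybrid cells, line 2-2 sampled at passage 10, were made by fusing EPSCs with NSCs of this genotype, picked as Oct4-GFP+ clones, and near-tetraploid. Neither the study nor the labels say whether the sequenced EPSCs and NSCs were the lines fused. Parent and parental below therefore refer to the cell type. ESCs, EPSCs, and hybrid cells were grown on inactivated mouse embryonic fibroblasts (of the C3H strain for EPSCs and hybrid cells), ESCs with serum and LIF and EPSCs and hybrid cells in LCDM medium, whereas NSCs were grown on gelatin with EGF and FGF2. Each group is read as 1 line from its labels, although no line is named for NSCs. The study describes its bulk sequencing as done in duplicate and calls the duplicates of one plot independent experiments, but neither it nor the labels say whether they were separate cultures. Where they were not, the p-values below measure only technical spread. The comparisons address which subunit of each family the 4 cell types transcribe, and which parental pattern the hybrid cells carry.

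BAF complexes use the energy of ATP to move or evict nucleosomes. They hold 1 ATPase, either BRG1 (from Smarca4) or BRM (from Smarca2), together with other subunits, and several positions can be filled by different paralogs. In embryonic stem cells the complex is known for BRG1 and a BAF155 (Smarcc1) core with little BAF170 (Smarcc2). Neural progenitors use BAF170 as well, and on leaving the cell cycle neurons exchange BAF53a (Actl6a) for BAF53b (Actl6b), and BAF45a (Phf10) for BAF45b (Dpf1) and BAF45c (Dpf3).

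Levels are in FPKM (fragments assigned to a gene, scaled per kilobase of its transcript and per 1000000 fragments of the library), which account for length and can therefore be set side by side between genes. Groups were compared with limma on log2(FPKM + 1), which understates the fold change of low genes, and genes were called at a Benjamini-Hochberg adjusted p below 0.05 over the 13239 genes with a mean of at least 1 FPKM in at least 1 group. Of the 10 genes, 9 passed this filter, and Actl6b did not. The depth derived from the steps between low FPKM values ranged from 22.0 to 32.6 times 1000000 fragments per library. FPKM summed to 415240 and 415412 in the NSC libraries and to between 600674 and 653796 in the other 6. Scaling every library to a common sum raised the median log2 difference of NSCs minus EPSCs by 0.56, and members called between 2 groups whose difference changes direction with it are named below. The 6 pluripotency markers summed to at least 4138 FPKM in every ESC, EPSC, and hybrid library and to at most 120.2 FPKM in NSCs, of which Sox2, shared with neural stem cells, made up nearly all. The 7 neural stem cell markers summed to at least 3692 FPKM in NSCs and to at most 19.4 FPKM elsewhere. The 3 astrocyte markers, Gfap, Aqp4, and S100b, summed to 29.9 and 34.7 FPKM in NSCs and to at most 0.120 FPKM elsewhere. The 8 neuronal markers were mixed and summed to 152 to 218 FPKM over all libraries. Dcx, Rbfox3, Snap25, and Syt1 were below 1 FPKM in every library, whereas Map2 read 173 and 191 FPKM in NSCs, Stmn2 90.3 to 168 FPKM and Tubb3 20.9 to 78.9 FPKM in the other 6 libraries, and Elavl3 up to 4.73 FPKM in ESCs. The part of such cells in the NSC values was not tested.

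The clearest difference between the cell types was that 3 genes, Smarca2, Smarcc2, and Smarcd3, were low in ESCs, EPSCs, and hybrid cells and high in NSCs. Their promoters are shown because these 3 had the widest differences between NSCs and EPSCs, at 2.57 or more on the log2(FPKM + 1) scale. Smarca4 and Dpf1 were also called higher in NSCs than in each other group, by 0.40 and 0.77 against EPSCs. Between hybrid cells and EPSCs they did not move together, since Smarca2 was higher and Smarcc2 and Smarcd3 were lower in hybrid cells. The windows run from 250 bases before to 50 bases after the RefSeq start site on GRCm38.p6, the assembly with the mm10 coordinates of the files, and are written 5′ to 3′ on the strand of the gene, with every CG dinucleotide in capitals. They lie at chr19:26604910-26605209 on the plus strand for Smarca2, chr10:128458986-128459285 on the plus strand for Smarcc2, and chr5:24601953-24602252 on the minus strand for Smarcd3. The start site used is internal to the span of each of these 3 genes, and furthest inside for Smarcd3.
Smarca2: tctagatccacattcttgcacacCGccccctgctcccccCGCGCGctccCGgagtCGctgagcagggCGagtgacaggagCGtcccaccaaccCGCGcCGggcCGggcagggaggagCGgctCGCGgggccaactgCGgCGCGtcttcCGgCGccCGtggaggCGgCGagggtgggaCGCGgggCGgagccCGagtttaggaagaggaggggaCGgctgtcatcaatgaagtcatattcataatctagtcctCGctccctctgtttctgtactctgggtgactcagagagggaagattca
Smarcc2: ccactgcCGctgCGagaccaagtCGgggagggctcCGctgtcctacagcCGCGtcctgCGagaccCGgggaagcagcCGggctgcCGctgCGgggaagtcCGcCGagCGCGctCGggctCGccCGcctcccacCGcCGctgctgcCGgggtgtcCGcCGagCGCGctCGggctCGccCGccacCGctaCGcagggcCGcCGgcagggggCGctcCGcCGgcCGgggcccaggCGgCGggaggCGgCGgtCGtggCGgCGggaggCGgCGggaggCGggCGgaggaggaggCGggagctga
Smarcd3: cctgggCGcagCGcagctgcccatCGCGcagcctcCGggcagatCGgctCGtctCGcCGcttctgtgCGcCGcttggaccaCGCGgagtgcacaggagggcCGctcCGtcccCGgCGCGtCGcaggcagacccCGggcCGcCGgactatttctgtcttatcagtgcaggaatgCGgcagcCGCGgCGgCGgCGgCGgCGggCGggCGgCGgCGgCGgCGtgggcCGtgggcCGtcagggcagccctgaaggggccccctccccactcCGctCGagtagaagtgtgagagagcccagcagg

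The windows hold 29 CG dinucleotides for Smarca2, 48 for Smarcc2, and 40 for Smarcd3. Among the 32851 promoters of the table the median is 7, and 12.9%, 1.22%, and 3.91% of them hold at least as many as these 3. This richness in CG was shared by all 10 genes, whether high, low, or near absent in these cells. The lowest count was 21 in Actl6a, followed by 23 in Actl6b, and the highest was 62 in Phf10. A GC box, GGGCGG on either strand, was found in all 10 windows and in 35.7% of all promoters. These matches describe the sequence and are not measured binding sites.

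The ATPase genes differed in how far they changed. Smarca4 (chr9:21616106-21704230) was the main ATPase gene in every library, at 37.0 and 37.5 FPKM in ESCs, 49.3 and 52.9 in EPSCs, 56.3 and 56.1 in hybrid cells, and 66.6 and 69.0 in NSCs. The groups did not overlap and followed this order, but the FPKM values as deposited spanned less than 2-fold. Smarca2 (chr19:26605073-26778321) read 0.269 and 0.474 FPKM in ESCs, 0.907 and 1.44 in EPSCs, 2.56 and 2.30 in hybrid cells, and 22.3 and 21.0 in NSCs. It followed the same order, again without overlap between groups, over a much wider range.

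The Smarca2 mean was 21.6 ± 0.88 FPKM in NSCs and 1.17 ± 0.37 in EPSCs (SD, n = 2 each), a difference of 3.39 ± 0.13 (SE) on the log2(FPKM + 1) scale with an adjusted p of 1.8e-07 in limma. Smarca4 was higher in NSCs than in EPSCs by 0.40 ± 0.05 (adjusted p = 0.00019), by 1.01 after scaling to a common sum, and by 0.73 after quantile normalization. Against ESCs it was higher in NSCs by 0.85, and by 1.40 and 1.09 under these alternatives, so its range depends on the scaling. As a share of the summed FPKM of both ATPase genes, Smarca2 made up 0.723% and 1.25% in ESCs, 1.81% and 2.64% in EPSCs, 4.35% and 3.94% in hybrid cells, and 25.1% and 23.4% in NSCs. The plain ratio of Smarca4 to Smarca2 was accordingly 2.99 and 3.28 in NSCs, 22.0 and 24.4 in hybrid cells, 54.3 and 36.8 in EPSCs, and 137 and 79.1 in ESCs. The log2 ratio, with 0.1 FPKM added to both genes, differed among the 4 groups with an exact permutation p of 0.0095, the smallest that the 2520 arrangements of 8 libraries allow. This was 1 of 5 ratios tested in this way, and their p-values are not adjusted. Any single pair of groups, with 2 libraries against 2, cannot reach a two-sided exact p below 0.333.

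Smarca2 also differed among the 3 pluripotent groups. It was higher in EPSCs than in ESCs by 0.66 ± 0.13 (adjusted p = 0.0042) and higher in hybrid cells than in EPSCs by 0.67 ± 0.13 (adjusted p = 0.0066, limma). Fibroblast markers moved in the same order. The sum of 10 such genes ran from 12.4 to 13.6 FPKM in ESCs, from 74.2 to 76.4 in EPSCs, from 218 to 292 in hybrid cells, and from 10.6 to 11.8 in NSCs. Of the 10, 9 were called higher in EPSCs than in ESCs (background 33.7%). All 10 were called higher in hybrid cells than in EPSCs (background 22.5%), of which Pdgfrb passed the filter through hybrid cells alone. The collagen gene Col1a1 rose from 1.86 and 2.06 FPKM in ESCs to 13.7 and 15.7 in EPSCs and to 61.0 and 46.2 in hybrid cells, and the proteoglycan gene Lum was listed at 0 in both NSC libraries. The part of feeder or fibroblast-like RNA in the Smarca2 values of these 3 groups was not tested. In NSCs, where Smarca2 was highest, 8 of the 10 markers were below 1 FPKM in both libraries, with Col1a2, Lum, and Twist2 listed at 0, but Prrx1 (6.36 and 7.70 FPKM) and Pdgfra (3.13 and 2.91 FPKM) were called higher in NSCs than in EPSCs. In bulk RNA, a change in the number of cells that express a gene and a change in its RNA per cell cannot be told apart.

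**Figure D1:**
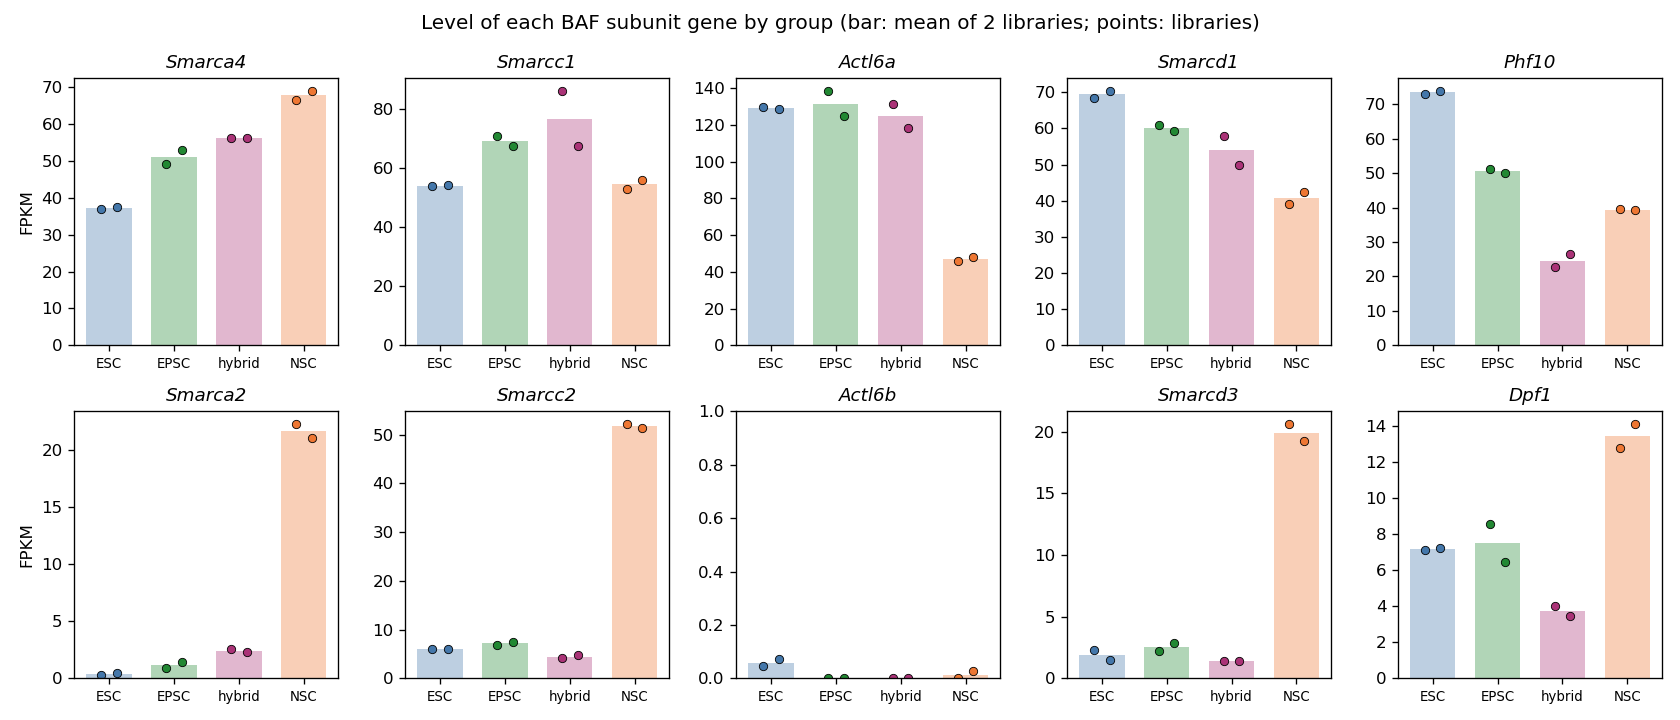
FPKM (y axis, linear from 0, its range set for each gene) of the 10 genes in the 4 groups (x axis). Bars are means of 2 libraries and points are the libraries, and the upper row holds the first gene of each pair and the lower row the second. Smarca2, Smarcc2, and Smarcd3 stood at 19.2 FPKM or more in both NSC libraries and at 7.46 FPKM or less in the other 6, whereas Actl6b did not exceed 0.0736 FPKM.

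Smarcc1 and Smarcc2 encode BAF155 and BAF170, the scaffold proteins on which the core of the complex is built. Smarcc1 (chr9:110132024-110240178) was high in all groups, at 53.9 and 54.4 FPKM in ESCs, 71.1 and 67.7 in EPSCs, 86.2 and 67.5 in hybrid cells, and 52.9 and 56.2 in NSCs. The hybrid libraries were far apart, and the lower of them was just below both EPSC libraries, so that the hybrid mean of 76.8 ± 13 FPKM was the least certain value of this gene. Smarcc2 (chr10:128459182-128490591) read 5.92 and 5.93 FPKM in ESCs, 6.89 and 7.46 in EPSCs, 4.16 and 4.69 in hybrid cells, and 52.1 and 51.4 in NSCs. All groups were apart, with hybrid cells the lowest and NSCs far above the rest.

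Smarcc2 was higher in NSCs than in EPSCs by 2.69 ± 0.08 (adjusted p = 3.5e-08) and lower in hybrid cells than in NSCs (-3.28 ± 0.08, adjusted p = 1.5e-08, limma). Smarcc1 was lower in NSCs than in EPSCs (-0.34 ± 0.11, adjusted p = 0.016), but with libraries scaled to a common sum it was higher (0.27, adjusted p = 0.037), and it was not called after quantile normalization (-0.06, adjusted p = 0.57) or without the first EPSC library (adjusted p = 0.074) or the first NSC library (adjusted p = 0.098). The pair's composition therefore rested on Smarcc2. Its share of the summed FPKM was 9.89% and 9.83% in ESCs, 8.83% and 9.93% in EPSCs, 4.60% and 6.50% in hybrid cells, and 49.6% and 47.8% in NSCs. NSCs thus had nearly equal levels of both, with Smarcc1 to Smarcc2 ratios of 1.02 and 1.09, against 9.07 to 10.3 in ESCs and EPSCs and 20.7 and 14.4 in hybrid cells. The log2 ratio differed among the 4 groups (exact permutation p = 0.029). The libraries of ESCs and EPSCs overlapped in this ratio, and those of hybrid cells did not overlap with any other group.

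Actl6a and Actl6b encode the actin-related subunits BAF53a, found in dividing cells, and BAF53b, found in neurons. Actl6a (chr3:32708546-32726973) was the most abundant of the 10 genes in ESCs, EPSCs, and hybrid cells, at 130 and 129, 138 and 125, and 131 and 118 FPKM, and read 45.7 and 48.3 FPKM in NSCs. The 3 pluripotent groups overlapped, and NSCs were below all of them. Actl6a was lower in NSCs than in EPSCs by a log2 difference of -1.47 ± 0.07 (adjusted p = 6.0e-07, limma), whereas hybrid cells differed from EPSCs by -0.08 ± 0.07 (adjusted p = 0.42). The difference between NSCs and EPSCs was -0.86 after scaling to a common sum and -1.13 after quantile normalization.

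Actl6b (chr5:137553361-137569582) was near the limit of detection everywhere. It read 0.0450 and 0.0736 FPKM in ESCs, was listed at 0 in both EPSC libraries, both hybrid libraries, and 1 NSC library, and read 0.0259 FPKM in the other NSC library. From the derived depths and the longest coding transcript, these values correspond to about 2 and 3 fragments in ESCs and about 1 in NSCs, and 3 fragments would have been worth 0.0661 to 0.0979 FPKM across the 8 libraries. No ratio of Actl6a to Actl6b is given for libraries listed at 0. With 0.1 FPKM added to both genes the log2 ratio differed among groups (exact permutation p = 0.019), but this is not a measured difference in Actl6b. The NSC ratio was lower with Actl6a, whereas ESCs were separated from EPSCs and hybrid cells (by 0.69 and 0.61 on the log2 scale) through the 2 and 3 Actl6b fragments. The p was 0.067 with 1 FPKM and 0.076 with 0.01 FPKM added. The share of Actl6b was at most 0.0571% in any library and did not pass the same test (exact permutation p = 0.29).

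The Smarcd genes encode the BAF60 subunits, which connect the complex to transcription factors. Smarcd1 (BAF60a, chr15:99702287-99713995) read 68.5 and 70.3 FPKM in ESCs, 61.0 and 59.3 in EPSCs, 58.0 and 49.8 in hybrid cells, and 39.2 and 42.5 in NSCs. The groups descended in this order without overlap in the FPKM values as deposited. After scaling to a common sum hybrid cells were below NSCs, with log2 means of 6.41 in hybrid cells, 6.58 in EPSCs, and 6.63 in NSCs. Smarcd3 (BAF60c, chr5:24592622-24624456), best known from heart and muscle, read 2.30 and 1.50 FPKM in ESCs, 2.18 and 2.89 in EPSCs, 1.40 and 1.42 in hybrid cells, and 20.6 and 19.2 in NSCs. Its ESC and EPSC libraries overlapped, and NSCs were far above all others. Of 5 muscle markers, Myl7 was listed at 0 in NSCs and read 2.87 to 8.16 FPKM in the other libraries, and the other 4 were below 1 FPKM in every library.

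Smarcd3 was higher in NSCs than in EPSCs by 2.57 ± 0.15 (adjusted p = 1.4e-06, limma). Smarcd1 was lower in NSCs than in EPSCs (-0.55 ± 0.08, adjusted p = 0.00031), but this was lost with libraries scaled to a common sum, where the difference was 0.06 (adjusted p = 0.51). Smarcd3 made up 3.24% and 2.09% of the pair in ESCs, 3.45% and 4.65% in EPSCs, 2.35% and 2.76% in hybrid cells, and 34.5% and 31.1% in NSCs. The log2 ratio differed among groups with an exact permutation p of 0.048, but without either hybrid library or the second EPSC library the p was 0.057 to 0.086. Smarcd2 (BAF60b), the remaining paralog, ran opposite to Smarcd3, at 26.3 and 26.1 FPKM in ESCs, 29.7 and 29.9 in EPSCs, 27.9 and 35.9 in hybrid cells, and 8.09 and 8.20 in NSCs. It was lower in NSCs than in EPSCs by a log2 difference of -1.75 ± 0.11 (adjusted p = 1.9e-06), and -1.21 after scaling to a common sum. Of the 3 paralogs together, Smarcd2 made up 26.7% to 41.2% and Smarcd3 1.53% to 3.14% in the 6 pluripotent libraries, whereas in NSCs Smarcd2 made up 11.9% and 11.7% and Smarcd3 30.4% and 27.5%.

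**Figure D2:**
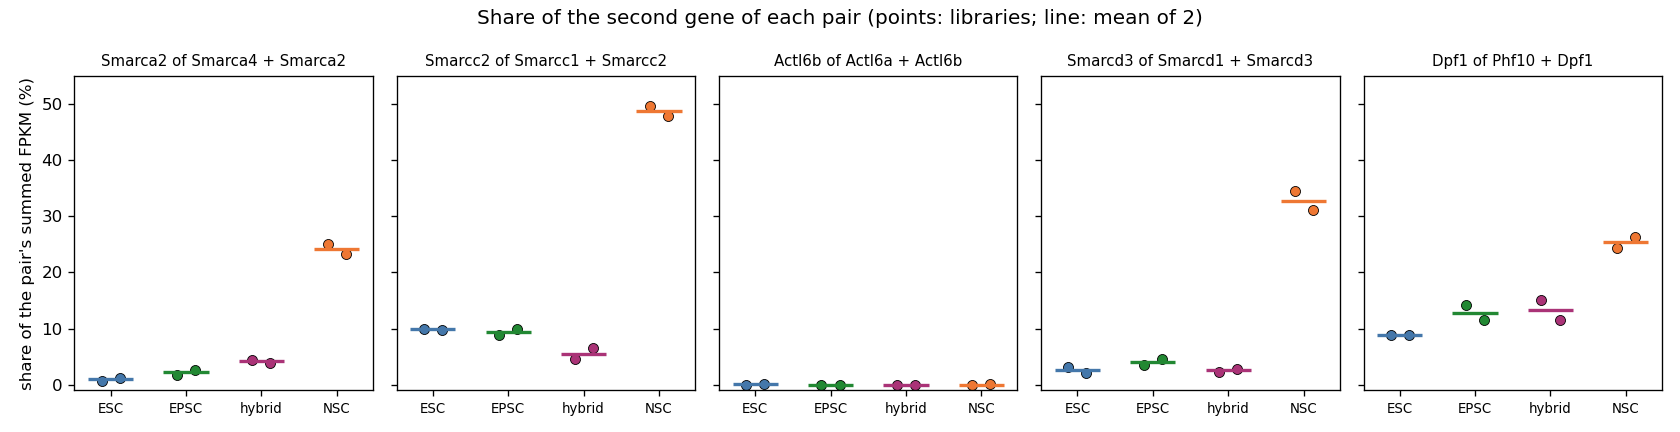
Share of the second gene in the summed FPKM of its pair (y axis, %) for 5 pairs in the 4 groups (x axis), with points for libraries and lines for means of 2. Smarca2, Smarcc2, Smarcd3, and Dpf1 took their highest shares in both NSC libraries, and Actl6b stayed at or near 0% in all 8.

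Phf10 and the Dpf genes encode the BAF45 subunits with paired PHD fingers. Phf10 (BAF45a, chr17:14944994-14961260), a subunit of the PBAF form known from proliferating progenitors, read 73.1 and 73.8 FPKM in ESCs, 51.3 and 49.9 in EPSCs, 22.6 and 26.6 in hybrid cells, and 39.6 and 39.3 in NSCs. All 4 groups were apart, and the lowest was not NSCs but hybrid cells. Dpf1 (BAF45b, chr7:29303952-29317592), known from neurons, read 7.11 and 7.22 FPKM in ESCs, 8.53 and 6.46 in EPSCs, 4.01 and 3.45 in hybrid cells, and 12.8 and 14.1 in NSCs. ESCs lay within the range of EPSCs, hybrid cells were below both, and NSCs were above all.

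Dpf1 was higher in NSCs than in EPSCs by 0.77 ± 0.13 (adjusted p = 0.00064) and lower in hybrid cells than in EPSCs (-0.84 ± 0.13, adjusted p = 0.0022, limma). Its difference between NSCs and EPSCs was 1.39 after scaling to a common sum and 0.58 after quantile normalization. Phf10 was lower in NSCs than in EPSCs (-0.35 ± 0.08, adjusted p = 0.0028), but higher with libraries scaled to a common sum (0.25, adjusted p = 0.020) and not called after quantile normalization (-0.06, adjusted p = 0.42). The share of Dpf1 in the pair was 8.86% and 8.92% in ESCs, 14.3% and 11.5% in EPSCs, 15.1% and 11.5% in hybrid cells, and 24.4% and 26.4% in NSCs. EPSCs and hybrid cells overlapped in this share although the summed level of the pair was 58.1 ± 2.4 FPKM in EPSCs and 28.3 ± 2.4 in hybrid cells. The log2 ratio of Phf10 to Dpf1 differed among groups (exact permutation p = 0.019), and without either ESC library the p was 0.057.

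The family has 2 further genes. Dpf3 (BAF45c) was at most 0.235 FPKM in the 6 pluripotent libraries and 12.7 and 12.9 FPKM in NSCs. It passed the filter on low values through NSCs alone, so these levels are given with no test. Dpf2 (BAF45d), the ubiquitous member, read 29.9 FPKM in both ESC libraries, 40.7 and 40.6 in EPSCs, 47.5 and 46.0 in hybrid cells, and 29.9 and 30.0 in NSCs. It was lower in NSCs than in EPSCs (-0.43, adjusted p = 6.5e-05), but higher after scaling to a common sum (0.17, adjusted p = 0.018, limma). Over all 4 genes, Phf10 made up 66.3% and 66.5% in ESCs but 30.4% and 34.9% in hybrid cells, where Dpf2 made up 63.9% and 60.3%. In NSCs Dpf1 made up 13.5% and 14.6% and Dpf3 13.4% in both libraries.

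**Figure D3:**
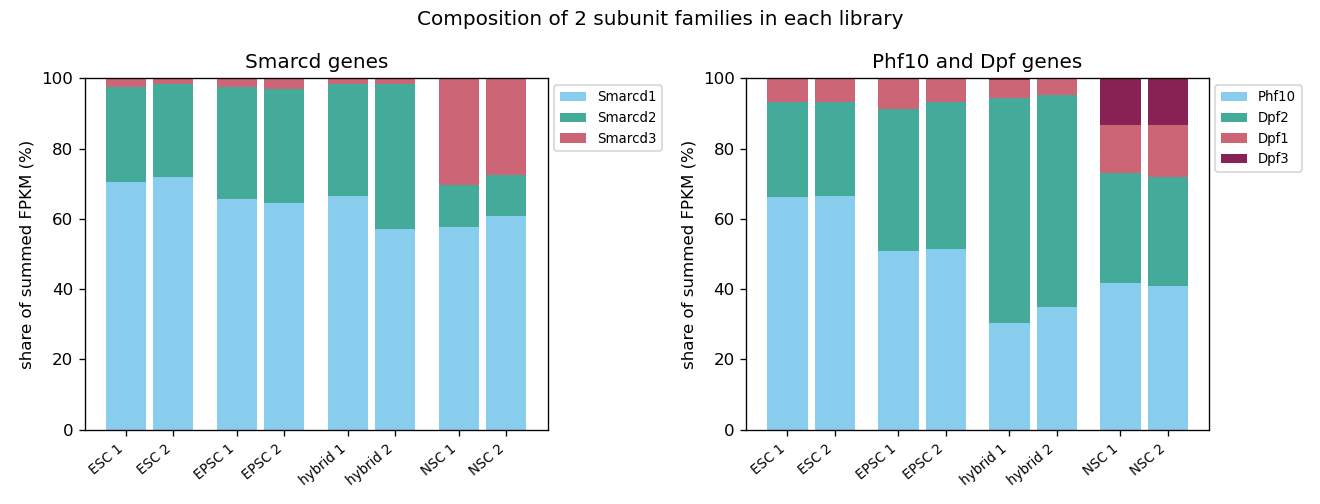
Share of each gene in the summed FPKM of its family (y axis, %) in each of the 8 libraries (x axis), for the Smarcd genes on the left and for Phf10 and the Dpf genes on the right. Smarcd3 and Dpf3 were visible in the 2 NSC libraries, and Dpf2 exceeded Phf10 in hybrid cells alone.

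Between NSCs and EPSCs, all 9 tested genes were called, 5 higher and 4 lower in NSCs. This count is to be read against a background in which 86.2% of all tested genes were called, 41.0% higher and 45.2% lower, so it is no result about these genes. With libraries scaled to a common sum the share of higher calls among all calls moved from 47.6% to 65.0%, and the genes were called 7 higher and 1 lower, where 56.6% of all tested genes were higher and 30.4% lower. The methods and the results text of the study give different thresholds for size, and both were applied. The methods refer to an average expression level without naming its samples, and the mean of the higher group was used here. With a mean over 3 FPKM in the higher group and a ratio over 3, Smarca2, Smarcc2, and Smarcd3 were called, all higher in NSCs, where 28.8% of the 13239 tested genes were called. With both thresholds at 2, Actl6a, lower in NSCs, was added (background 47.3%). Both counts are near their background. Between NSCs and ESCs, 8 of 9 were called (background 84.7%), 5 higher (background 41.9%) and 3 lower (background 42.8%) in NSCs, and Smarcc1 was not (0.01 ± 0.11, adjusted p = 0.94). After scaling to a common sum all 9 were called, 6 higher and 3 lower, where 85.5% of all tested genes were called, 56.3% higher and 29.2% lower. With the thresholds at 3 Smarca2, Smarcc2, and Smarcd3 were called there as well (background 27.6%), and with the thresholds at 2 also Actl6a (background 45.1%). These comparisons share the NSC libraries and are not independent of each other.

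Hybrid cells differed from NSCs in all 9 tested genes (background 86.5%), with 3 higher (background 44.5%) and 6 lower (background 42.0%) in hybrid cells. The 3 higher were Actl6a, Smarcc1, and Smarcd1. Scaled to a common sum, 1 gene, Actl6a, remained higher, and Smarcc1 and Smarcd1 turned to log2 differences of -0.14 (adjusted p = 0.23) and -0.22 (adjusted p = 0.028). The share of all tested genes that were higher in hybrid cells fell to 30.2% under this scaling, and the share lower rose to 57.3%. Smarcc1 and Smarcd1 were not called after quantile normalization, at 0.20 (adjusted p = 0.070) and 0.13 (adjusted p = 0.095). With the thresholds at 3, Smarca2, Smarcc2, Smarcd3, and Dpf1 were called, all lower in hybrid cells (background 29.0%), and at 2 Actl6a, higher in hybrid cells, was added (background 48.0%).

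Against EPSCs, hybrid cells differed in 5 of 9 genes, close to the 44.4% of all tested genes. Smarca2 was higher, and Smarcc2, Smarcd3, Dpf1, and Phf10 were lower, where 22.5% of all genes were higher and 21.9% lower. The difference was -1.02 ± 0.08 for Phf10 (adjusted p = 0.00017), -0.59 ± 0.08 for Smarcc2 (adjusted p = 0.0012), and -0.55 ± 0.15 for Smarcd3 (adjusted p = 0.023, limma). The last of these was not called without the second EPSC library, either hybrid library, or either NSC library, with an adjusted p of 0.051 to 0.10. Smarca4 (0.14 ± 0.05, adjusted p = 0.075), Smarcc1, Actl6a, and Smarcd1 did not pass the test. With 1 library left out, Smarca4 was called higher without the second EPSC library (adjusted p = 0.048), Smarcc1 higher without the second hybrid library (adjusted p = 0.011), and Smarcd1 lower without the first hybrid library (adjusted p = 0.023). None of the 10 genes was called with the thresholds at 3 (background 1.59%). With the thresholds at 2, Smarca2, higher in hybrid cells, and Dpf1 and Phf10, lower, were called (background 5.73%). All 3 ratios were just past that threshold. The means in hybrid cells and EPSCs were 2.43 and 1.17 FPKM for Smarca2, 3.73 and 7.49 for Dpf1, and 24.6 and 50.6 for Phf10.

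**Figure D4:**
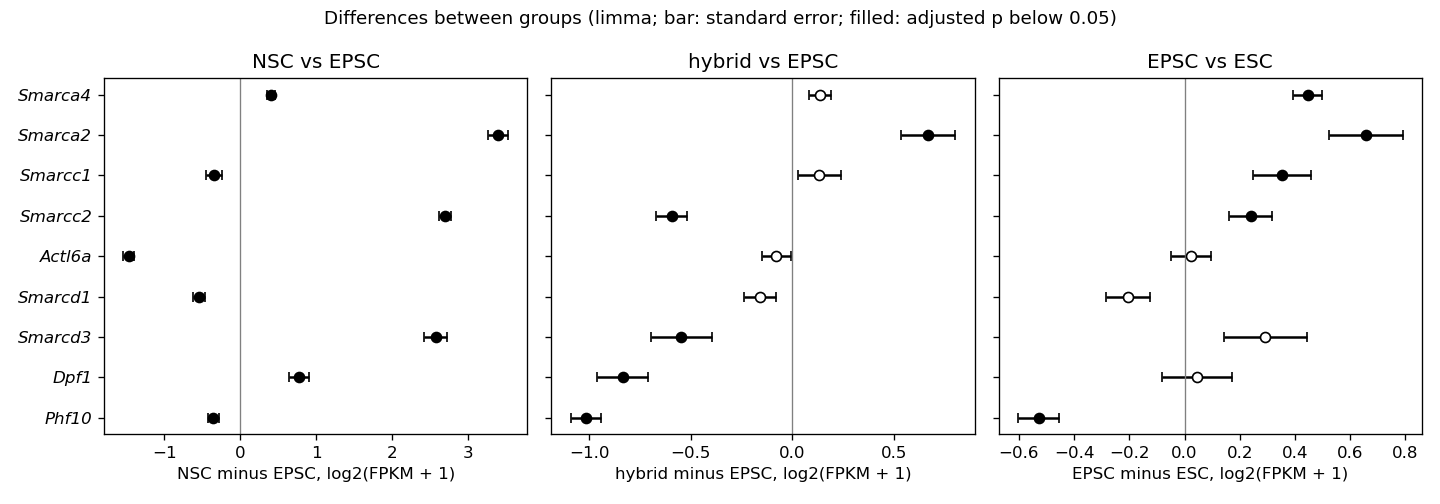
Difference of group means on the log2(FPKM + 1) scale (x axis, a separate range for each panel) for the 9 tested genes (y axis) in NSCs minus EPSCs, hybrid cells minus EPSCs, and EPSCs minus ESCs. Bars are standard errors of the limma fit and filled points have an adjusted p below 0.05. In NSCs minus EPSCs, Smarca2, Smarcc2, and Smarcd3 stood at 2.57 or more, and no difference between hybrid cells and EPSCs exceeded 1.02 in size.

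The position of hybrid cells between their parents was placed on a scale of log2(FPKM + 1) on which the NSC mean is 0 and the EPSC mean is 1. Over the 9 genes the median position was 0.95, and over all 11409 genes called between NSCs and EPSCs it was 0.97 with quartiles of 0.75 and 1.17. The genes fell on either side. Actl6a stood at 0.95, Smarca2 at 0.80, Smarcd1 at 0.71, and Smarca4 at 0.66, all between the parents. Smarcc1 stood at 1.39, but its libraries gave 1.90 and 0.88. After scaling to a common sum, where NSCs were the higher parent, it stood at 0.51, within the parental range.

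In all, 4 genes lay outside the parental range in both hybrid libraries. Smarcc2 (1.22), Smarcd3 (1.21), and Dpf1 (2.08) stood beyond the EPSC end and Phf10 (-1.89) beyond the NSC end, and all 4 were below every EPSC and NSC library. Without scaling, 16.2% of all tested genes had both hybrid libraries below every parental library and 18.7% had both above. After scaling to a common sum these 4 were again below every parental library, but Phf10, now higher in NSCs than in EPSCs, stood beyond the EPSC end (5.09). Smarcd1 fell below every parental library too (3.92). The share of all tested genes below every parental library is not available after this scaling, so that count is no result about these genes. Set against the plain mean of the parental levels, hybrid cells held 0.125 of it for Smarcd3, 0.150 for Smarcc2, 0.213 for Smarca2, 0.357 for Dpf1, and 0.546 for Phf10. The corresponding value was 0.946 for Smarca4, 1.07 for Smarcd1, 1.24 for Smarcc1, and 1.40 for Actl6a. These values use FPKM as deposited and were not recomputed after scaling to a common sum. Smarcd1 lay below every parental library under that scaling, so its 1.07 depends on it.

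**Figure D5:**
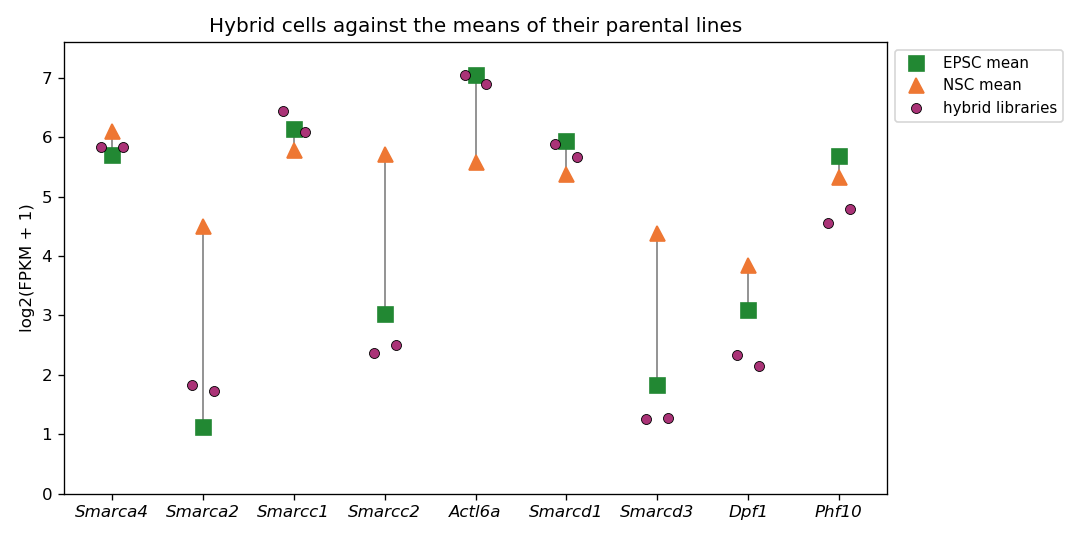
Level on the log2(FPKM + 1) scale (y axis) of the 9 tested genes (x axis) as EPSC means (squares), NSC means (triangles), and the 2 hybrid libraries (circles), with a line joining the parental means. The hybrid circles of Smarcc2, Smarcd3, Dpf1, and Phf10 lie below both parental means, and those of Smarca2, Smarcc2, and Smarcd3 lie near or below the EPSC end of a long line.

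EPSCs and ESCs, pluripotent lines of different origin and in different media, differed in 5 of 9 genes, against 61.0% of all tested genes. Origin and medium cannot be told apart here. Smarca4 (0.45 ± 0.05, adjusted p = 0.00034), Smarca2, Smarcc1, and Smarcc2 were higher in EPSCs, where 33.7% of genes were higher. Phf10 was lower (-0.53 ± 0.08, adjusted p = 0.00076), where 27.3% of genes were lower. Smarcc1 (0.35 ± 0.11, adjusted p = 0.022) was not called when any 1 of the 4 libraries was left out, and Smarcc2 (0.24 ± 0.08, adjusted p = 0.028) was not called without either ESC library, the second EPSC library, or either NSC library, nor after scaling to a common sum (0.19, adjusted p = 0.11). Between hybrid cells and ESCs, 7 of 9 genes were called (background 65.5%). Smarca4, Smarca2, and Smarcc1 were higher in hybrid cells (background 35.3%), and Smarcc2, Smarcd1, Dpf1, and Phf10 were lower (background 30.2%), of which Phf10 moved the most, by -1.55 ± 0.08 (adjusted p = 5.6e-06). None of the 10 genes was called there with the thresholds at 3 (background 6.68%), and Smarca2 and Phf10 were called with the thresholds at 2 (background 16.4%). Between EPSCs and ESCs neither setting called any of them (background 4.72% and 13.0%).

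Of 21 other subunit genes of the BAF, PBAF, and ncBAF forms, 19 were tested, and Bcl11a and Bcl11b, at most 0.581 and 0.255 FPKM, did not pass the filter. Between NSCs and EPSCs 7, Dpf3 among them, were higher and 7 lower, where 41.0% and 45.2% of all tested genes were, with a median log2 difference of 0.07 beside -0.08 over all tested genes, and after scaling to a common sum 15 were higher and 4 lower, where 56.6% and 30.4% of all tested genes were. After quantile normalization 12 were higher and 6 lower (40.6% and 45.3% of all tested genes). Dpf3 is held in each of these higher counts and in the median. It passed the filter through NSCs alone, so its place there is no test of it. The median of the 9 genes above was 0.40, the value of Smarca4. That gene stood at 1.01 after scaling to a common sum, where the median over all tested genes was 0.48. SS18 and its neuronal paralog CREST form another exchange pair. Ss18 read 63.7 and 64.6 FPKM in ESCs, 84.8 and 79.8 in EPSCs, 48.1 and 49.4 in hybrid cells, and 41.2 and 40.4 in NSCs. It was higher in hybrid cells than in NSCs (0.25, adjusted p = 0.0022), but lower after scaling to a common sum (-0.36, adjusted p = 0.00023, limma). Ss18l1, which encodes CREST, was 2.02 to 2.45 FPKM in the 6 pluripotent libraries and 5.24 and 5.18 FPKM in NSCs, higher than in EPSCs by 1.00 ± 0.09 (adjusted p = 1.5e-05). This difference was 1.66 after scaling to a common sum and 0.59 after quantile normalization.

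The large subunits Arid1a (BAF250a) and Arid1b (BAF250b) differed between hybrid cells and EPSCs in opposite directions. Arid1a read 39.3 and 41.4 FPKM in EPSCs and 57.4 and 53.9 in hybrid cells (0.45 ± 0.06, adjusted p = 0.0015), and Arid1b read 3.19 and 3.64 FPKM in EPSCs and 2.60 and 2.57 in hybrid cells (-0.30 ± 0.09, adjusted p = 0.031). Arid2, of the PBAF form, read 17.0 and 16.8 FPKM in EPSCs and 8.95 and 8.14 in hybrid cells (-0.91 ± 0.07, adjusted p = 0.00021, limma). In that comparison 2 of the 19 genes were higher and 8 lower, where 22.5% and 21.9% of all tested genes were, with a median of -0.22 beside 0.00 over all tested genes. With these 2 groups alone in the fit, the count was 1 higher and 2 lower. The share of all tested genes called in that fit is not available, so this fall is no result about these genes. Rest, the repressor of neuronal genes in other cell types, was 30.6 and 31.6 FPKM in ESCs, 37.3 and 41.4 in EPSCs, 35.2 and 26.6 in hybrid cells, and 8.64 and 8.87 in NSCs, lower in NSCs than in EPSCs by a log2 difference of -2.05 ± 0.12 (adjusted p = 1.6e-06).

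The genes whose profile over the 8 libraries was most like each member were found by Euclidean distance of centred log2(FPKM + 1). Smarcc2 and Smarcd3 were among each other's 3 nearest of the 13239 genes, at a distance of 0.38, after Kif21b at 0.37 for Smarcc2 and first in order for Smarcd3. Smarcc2 was also near Zmiz1, and Smarcd3 near Tmcc3 and Glcci1. Nearest to Smarca2 were Ppap2b, Tubb2a, and Lxn (0.26 to 0.36), nearest to Dpf1 were Kif7, Maoa, and Zcrb1 (0.16 to 0.31), and nearest to Phf10 were Shmt2, Ero1l, and Gabbr1 (0.22 to 0.41). These distances describe 8 libraries that share 4 lines.

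Exons of 4 members overlap a listed gene of the opposite strand that has a level above 0, and whether the counting used strand is not given in the sources used here. Chpf2, which overlaps Smarcd3, averaged 12.9 FPKM in NSCs and 3.82 to 4.56 in the other groups. Mrpl47, which overlaps Actl6a, averaged 17.5 FPKM in NSCs and 45.0 to 70.3 in the others. Both moved in the direction of the member they overlap, and reads shared between them cannot be told apart here. Dhx30, overlapping Smarcc1, ranged from 30.1 to 35.5 FPKM between group means, and 1600012H06Rik, overlapping Phf10, from 9.73 to 14.8 FPKM.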

How the data were processed

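RNA sequencing covered 8 libraries (poly-A, stranded, paired-end). The authors trimmed reads with skewer, aligned them to mm10 with STAR 2.7.9a, and computed FPKM with Cuffnorm 2.2.1, and the deposited FPKM values per gene and library were used here. Annotation, strand setting, and library normalization are not given in the sources used here. Read counts were not analysed. Depth was estimated from the spacing of low FPKM values with an assumed fragment length of 200 nucleotides.

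The genes, lists, and pairs were chosen with earlier results of these data known. Groups were compared with limma 3.58.1 (R 4.3.3, eBayes with trend, two-sided, 4 groups in 1 fit) on log2(FPKM + 1), for genes with a mean of at least 1 FPKM in any group, and tested on simulated data. Ratios had 0.1 FPKM added to both genes and an exact permutation test. Named were all 10 genes, subunits from a list, Rest, and the 3 nearest genes of each member whose group means spanned over 2-fold, except that those of Actl6a are not reported here. Alternatives covered the pseudocount, filter, scaling, groups fitted, replicate block, trend, call rule, and each library left out. Positions and promoters are from RefSeq, and transcripts and exons from GENCODE M21.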

Additional observations from a re-analysis of the deposited data

How the results depend on the processing

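Counts of the 10 genes called in either direction kept within 1.5 times their value under every alternative of pseudocount, filter, scaling, groups fitted, trend, and block, and moved with the rule for a call or a library left out. By direction, genes lower in NSCs than in EPSCs went from 4 to 1 after scaling to a common sum and to 2 after quantile normalization, and those higher in hybrid cells than in NSCs from 3 to 1 under both. Genes lower in EPSCs than in ESCs went from 1 (Phf10) to 2 with Smarcd1 under both, with 2 groups in the fit, and with crossed NSC numbers, and with Actl6b without a filter. Of the 19 other subunits, 7 were higher in NSCs than in EPSCs, 15 after scaling to a common sum and 12 after quantile normalization. Each of these counts holds Dpf3, which passed the filter through NSCs alone. Scaling to a common sum turned Dpf2, Arid1a, and Bcl7b from lower to higher there. Of the same 19, 10 were called between hybrid cells and EPSCs, and 3 with these 2 groups alone in the fit, for which no share of all tested genes is available. By the rule of a mean and ratio over 3, the counts were 3 (NSCs against EPSCs, 9 with limma), 4 (hybrid cells against NSCs, 9 with limma), 0 (hybrid cells against EPSCs, 5 with limma), 0 (EPSCs against ESCs, 5 with limma), 3 (NSCs against ESCs, 8 with limma), and 0 (hybrid cells against ESCs, 7 with limma), and over 2 they were 4, 5, 3, 0, 4, and 2. Leaving out each library gave 3 to 6 calls for EPSCs against ESCs. For the Actl6a and Actl6b log2 ratio (EPSCs minus NSCs, 1.65 with 0.1 added, p = 0.019) the value was 1.48 (p = 0.067) with 1 added and 2.41 (p = 0.076) with 0.01 added in the exact permutation test. The difference in log2 ratio of Smarcd1 and Smarcd3 ranged from 3.28 to 3.71 and that of Phf10 and Dpf1 from 1.03 to 1.38 with each library left out. The median hybrid position was 0.95, and 1.19 after scaling to a common sum. That scaling reversed Smarcc1 (0.27), Smarcd1 (0.057), and Phf10 (0.25) between NSCs and EPSCs, and Smarcc1 (-0.14) and Smarcd1 (-0.22) between hybrid cells and NSCs; the cause was not tested. Of 688 recomputed values of called genes, 662 kept direction and call, 21 lost the call, and 5 reversed, all 5 under that scaling. Alternatives of filter, block, trend, groups fitted, and libraries left out of other groups cannot change the difference itself. The 662 therefore overstate how far the directions were tested.

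By their labels, same-numbered libraries share only a number, and whether they share more is not known. Their deviations correlated by -0.11 (NSCs and ESCs) to 0.28 (hybrid cells and EPSCs). With the replicate block, counts stayed at 9, 9, 5, 5, 8, and 7 in the order above. The EPSC minus NSC ratios (3.72, 3.18, 1.65, 3.50, and 1.20) cannot change with it, since each group holds 1 library of each number. Crossing the NSC numbers, an alternative chosen after seeing the data, gave 8 calls between NSCs and ESCs. Without a filter on low values Actl6b was called higher in ESCs than in each other group (adjusted p = 0.019 to 0.034, limma). With 2 libraries of 1 line per group, no value speaks for other lines, and Actl6b rests on 3 fragments or fewer per library.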
